A study of Mus musculus with 36 samples.

Results

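The genes described here are the ligands and receptors of the tumour necrosis factor (TNF) superfamily. They were taken by name: every protein-coding mouse gene of GRCm38 whose symbol starts with Tnfsf or Tnfrsf, together with Tnf, Lta, Ltb, Ltbr, Fas, Fasl, Cd40, Cd40lg, Cd27, Cd70 and Ngfr, leaving out Tnfrsf17 and Tnfrsf13b. Tnfrsf13b encodes TACI, a surface protein by which the cells were sorted. The rule found 41 genes of 54203, 18 of them ligands and 23 receptors.

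Ligands of the TNF superfamily are trimeric proteins, mostly anchored in the cell membrane, and they cluster receptors on a neighbouring cell or are shed by proteases. Receptors fall broadly into those that recruit TRAF adaptor proteins and activate NF-kappaB, those with a cytoplasmic death domain that can start caspase activation, and decoys that bind ligand without signalling. For plasma cells, which secrete antibody, the family is best known for the BAFF and APRIL survival ligands and their receptors, while lymphotoxins shape lymphoid tissue and CD40 carries T cell help to B cells.

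The study sequenced RNA of plasma cells from the bone marrow of C57/BL6 mice carrying candidate drivers of multiple myeloma, sorted as reporter-positive, CD138+ and TACI+, with 2000 cells per library. Cohort D held the groups Control(D), Ccnd1, Ikk2ca(D) and Ccnd1-Ikk2ca, and cohort M the groups Control(M), MMSET, Ikk2ca(M) and MMSET-Ikk2ca, with 4 libraries in each group except 6 in each group with both transgenes. Ccnd1 encodes cyclin D1, MMSET is another name for the histone methyltransferase gene Nsd2, and Ikk2ca stands for the kinase IKK2, encoded by Ikbkb, which activates NF-kappaB. The labels give no age, no driver of the transgenes, no make-up of the control groups beyond their name, and do not say whether each library of a group is from an animal of its own. The p-values therefore describe variation among the sequenced libraries, which may be technical.

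Each library held 54.1 to 97.6 M (mega) reads, of which 43.9% to 73.0% came from immunoglobulin genes, so 16.2 to 34.9 M reads were left for all other genes. Levels are CPM, a gene's reads per M reads of the library's total, with TMM scaling over all 36 libraries. The transgenes were visible: Ccnd1 stood at 303 ± 53.8 CPM (SD, n = 4) in the Ccnd1 group and 701 ± 253 (n = 6) in Ccnd1-Ikk2ca, Nsd2 at 627 ± 189 (n = 4) in MMSET and 339 ± 164 (n = 6) in MMSET-Ikk2ca, and Ikbkb had group means of 53.0 to 57.1 CPM in the 4 groups with Ikk2ca against 18.9 to 27.4 in the others. In sorted cells as in other bulk samples, fewer cells of a type and less RNA per cell cannot be told apart. MMSET replicate 1 stood apart in markers of other cells, with neutrophil markers summing to 2710 CPM against 44.4 to 169 in the other libraries of its group and monocyte and macrophage markers to 1613 against 635 to 707.

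The promoter sequences at hand were searched for the kappaB consensus, the DNA motif bound by NF-kappaB, because Ikk2 acts through that factor. Every member with an entry was searched, whether or not its level moved. RefSeq gave a start site and promoter on GRCm38.p6 for 31 of the 41 members, and within 250 bases upstream 3 of them (9.68%) held the kappaB consensus on either strand, against 843 of 17492 protein-coding genes (4.82%). These were Ltb, Tnfrsf9 and Tnfrsf8. The stretches that hold the motif are shown with the match in capitals, since Ltb and Tnfrsf9 are among the members whose levels were higher with Ikk2ca and Tnfrsf8 among those that were lower:
Ltb: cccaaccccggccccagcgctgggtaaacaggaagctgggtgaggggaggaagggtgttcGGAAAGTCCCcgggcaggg
Tnfrsf9: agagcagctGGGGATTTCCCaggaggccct
Tnfrsf8: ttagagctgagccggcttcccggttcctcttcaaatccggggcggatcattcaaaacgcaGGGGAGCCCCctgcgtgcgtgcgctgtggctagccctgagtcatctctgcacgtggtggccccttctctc
The Ltb stretch is chr17:35194360-35194438 on the plus strand and its match begins 87 bases before the RefSeq start. The Tnfrsf9 stretch is chr4:150927947-150927976 on the plus strand, with 2 overlapping matches that begin 43 bases before the start and lie inside a GENCODE exon. The Tnfrsf8 stretch is chr4:145315263-145315392 on the minus strand, with its match 168 bases before the start. Another RefSeq start of Tnfrsf9 had no match in its window, nor had the windows of Tnf, Lta, Ltbr, Tnfsf10, Fas, Tnfrsf21 and Tnfsf14. A match of letters is not a measured binding site, and no entry was at hand for Cd40.

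Compared per transcript length, as TPM, 8 of the 41 members averaged at least 1 TPM over the 36 libraries. Tnfrsf13c, the BAFF receptor, led with a mean of 21.1 TPM, followed by Ltb (lymphotoxin beta, 16), Tnfrsf18 (GITR, 6.04), Cd40 (4.96), the death receptor Fas (1.97), Tnfsf10 (the death ligand TRAIL, 1.81), the TNF receptor Tnfrsf1a (1.5) and the lymphotoxin beta receptor Ltbr (1.29). The order differed between groups. In Control(D) Ltb averaged 3.40 TPM, below Tnfrsf13c at 19.9 and Tnfrsf18 at 4.08, whereas in MMSET-Ikk2ca Ltb averaged 49.4 TPM and Tnfrsf13c 23.7. Cd40 averaged 1.04 TPM in Control(D), below Fas at 3.27, and 6.31 TPM in Ikk2ca(D), above Fas at 0.768. No length-scaled difference was tested, and neighbours in the order from Fas to Ltbr lay within a range of 1.29 to 1.97 TPM.

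**Figure D1:**
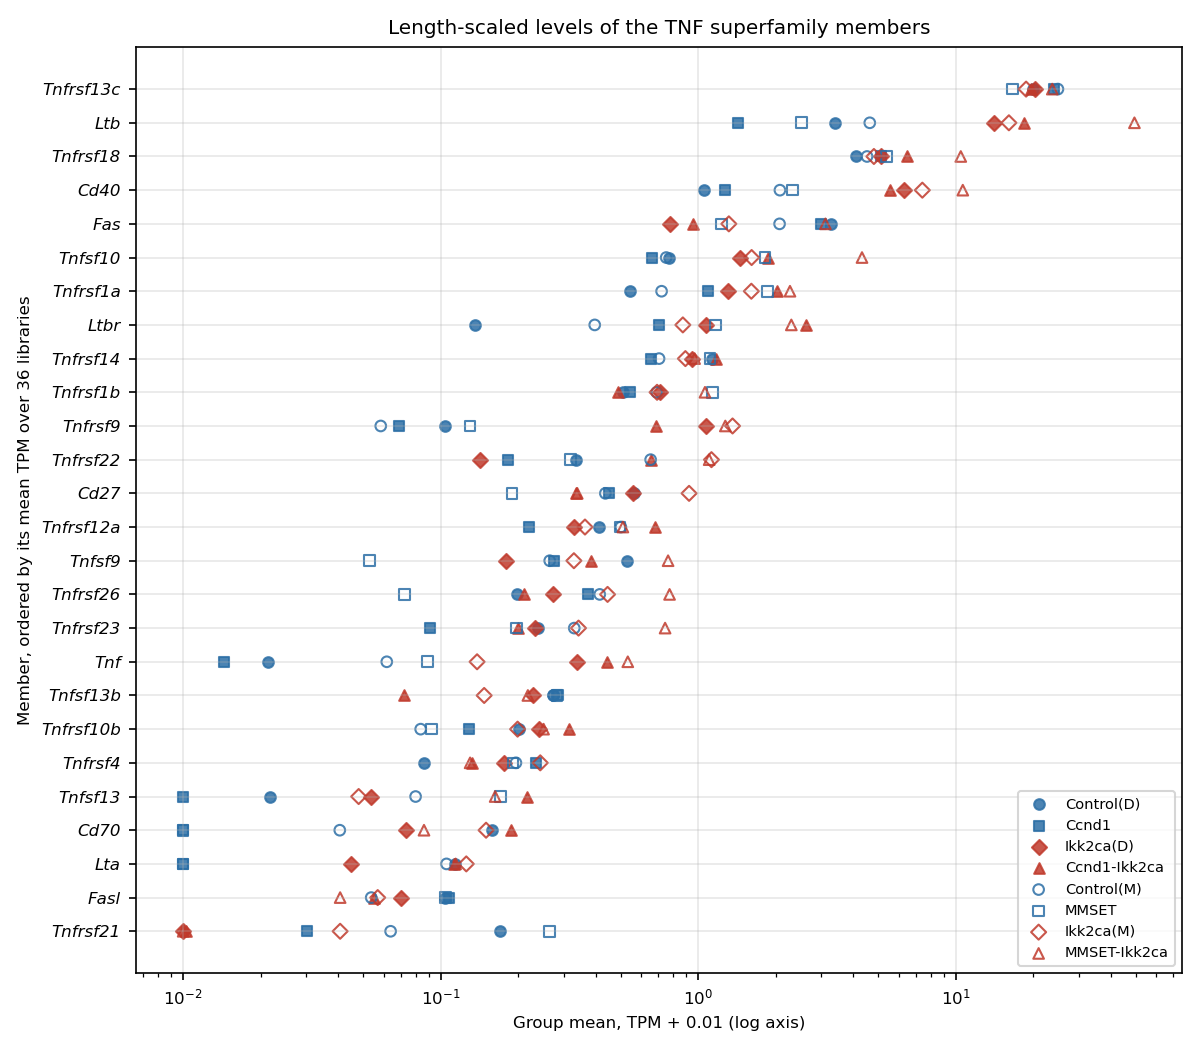
Mean TPM of each member in the 8 groups (log axis, 0.01 added), for members with a mean of at least 0.05 TPM over 36 libraries, ordered by that mean; red marks groups with Ikk2ca and open symbols cohort M. Tnfrsf13c lies between 16.6 and 24.9 TPM in every group, while Ltb, Cd40, Tnfrsf9 and Tnf lie further right in the groups with Ikk2ca.

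The largest differences among the members followed Ikk2ca. Averaged over its 4 backgrounds (control and Ccnd1 in cohort D, control and MMSET in cohort M), 11 of the 32 members tested passed an adjusted p of 0.05 in edgeR's quasi-likelihood test with Benjamini-Hochberg adjustment over all genes, against 16.1% of all genes tested in that comparison (9.17% higher and 6.98% lower). The 7 that were higher with Ikk2ca were the ligands Ltb, Tnf, Lta and Tnfsf10 and the receptors Cd40, Tnfrsf9 and Ltbr. The 4 that were lower were the receptors Fas, Tnfrsf8 and Tnfrsf21 and the ligand Tnfsf14. The median log2 fold change was 0.40 over the 32 members and 0.02 over all genes. This average was chosen after the data had been seen, and the separate backgrounds follow as fold changes or, where a group had almost no reads, as reads. Tnfrsf8, Tnfrsf21 and Tnfsf14 passed the low-count filter only through libraries without Ikk2ca. Of the 4 lower calls these could therefore come out in no other direction. Tnf passed it only through libraries with Ikk2ca, so its call could only be higher. On simulated data this fit made more false calls than its threshold allows, mostly under 1 CPM, the range of Tnfrsf8, Tnfrsf21, Tnfsf14, Tnf and Lta.

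**Figure D2:**
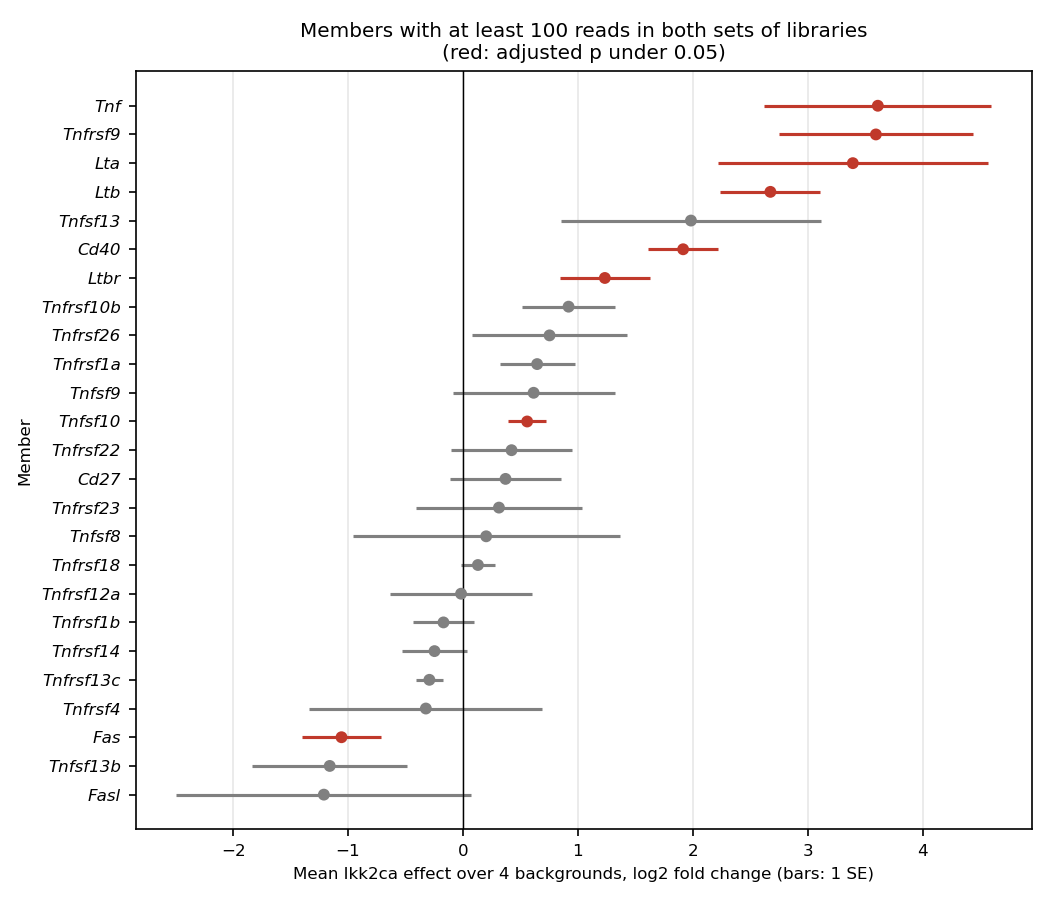
Log2 fold change with Ikk2ca averaged over 4 backgrounds (bars, 1 SE) for members with at least 100 reads in both the 20 libraries with Ikk2ca and the 16 without; red marks members with an adjusted p under 0.05. Tnf, Tnfrsf9, Lta, Ltb, Cd40, Ltbr and Tnfsf10 lie to the right of 0 and Fas to the left.

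Among the ligands, Ltb showed the highest levels. It encodes the membrane anchor of the lymphotoxin heterotrimer, and the gene (chr17:35194439-35196320) forms a block with Tnf and Lta of 10.9 kb on GRCm38, with no other protein-coding gene between them. Its CPM was 13.1, 6.24, 1.3 and 12.9 in Control(D) and 3.07, 2.43, 7.65 and 2.73 in Ccnd1, against 20.2, 61.4, 14.8 and 30.5 in Ikk2ca(D). Ccnd1-Ikk2ca ranged from 8.81 to 63.2 CPM with a median of 43.2. All 4 Ikk2ca(D) libraries exceeded all 4 of Control(D), and all 6 Ccnd1-Ikk2ca libraries exceeded all 4 of Ccnd1.

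In cohort M, Ltb stood at 13.1, 0.596, 17.9 and 15.3 CPM in Control(M), at 8.50, 3.81, 19.1 and 3.12 in MMSET and at 9.91, 56.2, 51.6 and 41.6 in Ikk2ca(M). MMSET-Ikk2ca ranged from 20.3 to 288 CPM with a median of 92.2. The lowest MMSET-Ikk2ca library lay above the highest of Control(M) and of MMSET, while Ikk2ca(M) replicate 1 overlapped its controls. Over all libraries, 16 of the 20 with Ikk2ca had more Ltb than each of the 16 without it. The average rise was 2.68 on the log2 scale (SE 0.43, 6.39-fold, edgeR adjusted p = 8.33e-05). Within cohorts the log2 differences were 1.92 (SE 0.73, adjusted p = 0.264) for Ikk2ca(D) against Control(D), 3.18 (SE 0.74, adjusted p = 0.0188) for Ccnd1-Ikk2ca against Ccnd1, 1.75 (SE 0.94, adjusted p = 0.492) for Ikk2ca(M) against Control(M) and 3.82 (SE 0.99, adjusted p = 0.0760) for MMSET-Ikk2ca against MMSET. The comparison with Ccnd1 lost its call without Ccnd1 replicate 1 or 2, with edgeR adjusted p-values up to 0.0748.

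Tnf, the founding inflammatory cytokine of the family, was low and uneven. The 16 libraries without Ikk2ca held 154 reads of it in all, 52 of them in Control(M) replicate 3 and 86 in MMSET replicate 1, whereas the 20 with Ikk2ca held 1864. Its CPM was 0.0198, 2.56, 1.01 and 0.930 for Ikk2ca(D) and 0, 0.535, 0.534 and 0.937 for Ikk2ca(M). The groups with both transgenes ranged from 0.0127 to 3.11 (median 0.778, cohort D) and from 0.0146 to 4.90 (median 0.724, cohort M). Each of the 4 Ikk2ca groups thus contained 1 library with 0 or 1 read. The average log2 difference was 3.61 (SE 0.99, edgeR adjusted p = 0.0103). Ccnd1-Ikk2ca passed against Ccnd1 (edgeR adjusted p = 0.0473), where the 4 Ccnd1 libraries held 0, 2, 1 and 1 reads. That call was lost when any of 12 of the 18 libraries of the cohort was left out. In cohort D Tnf passed the low-count filter only through libraries with Ikk2ca, so that call could only be higher. Ikk2ca(D) against Control(D), whose libraries held 8, 1, 1 and 0 reads, had an edgeR adjusted p of 0.213. The cohort M differences were 1.23 (SE 2.06, adjusted p = 0.933) for Ikk2ca(M) against Control(M) and 2.32 (SE 2.03, adjusted p = 0.760) for MMSET-Ikk2ca against MMSET.

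Lta, lymphotoxin alpha, is the soluble partner of Ltb. It had 0 reads in all 4 Ccnd1 and all 4 MMSET libraries. In Control(D) it held 57, 0, 0 and 25 reads and in Control(M) 18, 0, 60 and 0, so the control groups overlapped the groups with Ikk2ca, whose highest libraries reached 0.411 CPM (Ikk2ca(D)), 0.937 (Ikk2ca(M)), 1.26 (Ccnd1-Ikk2ca) and 1.04 (MMSET-Ikk2ca). The average passed narrowly (edgeR adjusted p = 0.0478) and was lost when any of 25 of the 36 libraries was left out. Against the controls the log2 differences were -1.40 (SE 2.34) for Ikk2ca(D) and 0.20 (SE 2.0) for Ikk2ca(M), with adjusted p-values of 0.901 and 1.0. Against Ccnd1 and MMSET, both without a read, the groups with both transgenes had edgeR adjusted p-values of 0.176 and 0.203.

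Tnfsf10 encodes TRAIL, which engages death receptors on target cells. Its CPM was 8.11, 8.60, 10.3 and 10.2 in Control(D), 3.67, 11.8, 10.7 and 12.3 in Ccnd1, 7.22, 12.5, 12.8 and 21.1 in Ikk2ca(D) and 13.6 to 18.3 (median 16.3) in Ccnd1-Ikk2ca. In cohort M it was 7.09, 17.3, 5.82 and 10.4 in Control(M), 19.4, 34.1, 22.5 and 28.4 in MMSET, 16.6, 19.9, 12.9 and 15.2 in Ikk2ca(M) and 14.0 to 51.5 (median 31.6) in MMSET-Ikk2ca. Every MMSET library lay above every Control(M) library, and so did every Ccnd1-Ikk2ca library above Control(D). MMSET-Ikk2ca rose against Control(M) by 1.65 on the log2 scale (SE 0.33, 3.14-fold, edgeR adjusted p = 0.0053), which held with each library of the cohort left out in turn (adjusted p = 0.0014 to 0.0244). MMSET alone differed from Control(M) by 1.36 (SE 0.35, 2.56-fold, edgeR adjusted p = 0.0943), a difference that DESeq2 called. The average with Ikk2ca was 0.56 (SE 0.16, edgeR adjusted p = 0.0171). By background it was 0.52 (SE 0.32) in Ikk2ca(D) and 0.67 (SE 0.35) in Ikk2ca(M) against the controls, 0.73 (SE 0.30) against Ccnd1 and 0.30 (SE 0.32) against MMSET, with edgeR adjusted p-values of 0.549, 0.453, 0.155 and 0.835.

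**Figure D3:**
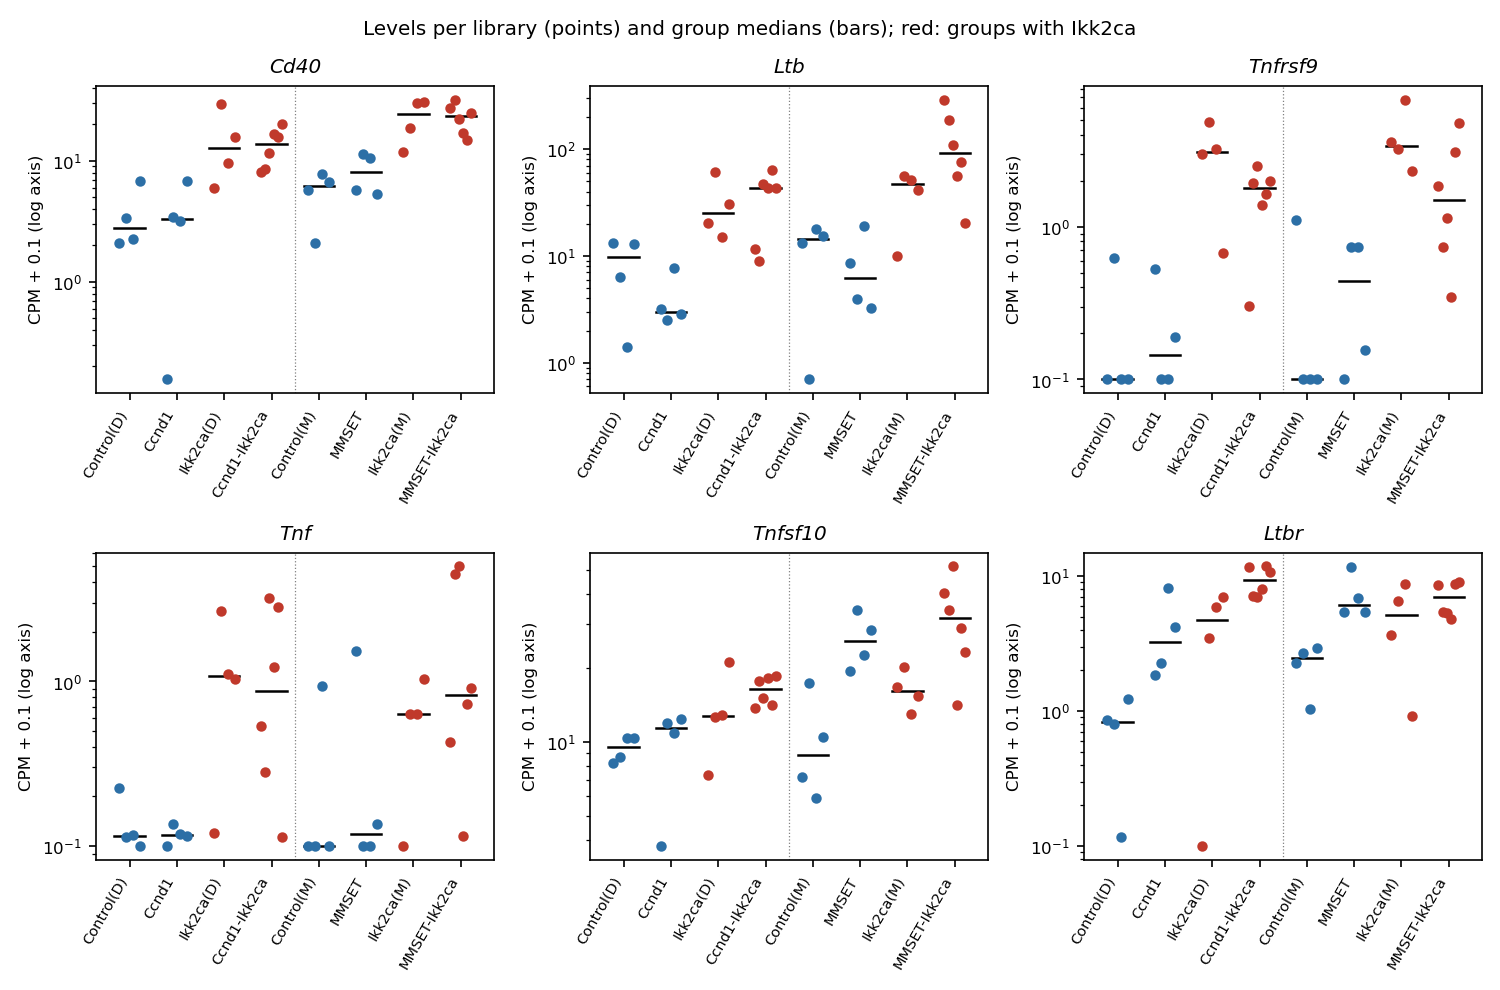
CPM plus 0.1 (log axis) of Cd40, Ltb, Tnfrsf9, Tnf, Tnfsf10 and Ltbr in each of the 36 libraries (points) with group medians (bars); red marks groups with Ikk2ca and the dotted line separates the cohorts. The groups with Ikk2ca lie higher for Cd40, Ltb and Tnfrsf9, the Tnf points are scattered within groups, and MMSET libraries share the higher Tnfsf10 and Ltbr levels of MMSET-Ikk2ca.

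The remaining ligands were scarce. Tnfsf13b, which encodes BAFF, ranged from 0 to 4.55 CPM over all libraries, and the average Ikk2ca difference was -1.16 (SE 0.67, edgeR adjusted p = 0.278). Tnfsf9, the ligand of 4-1BB, reached at most 4.83 CPM (average difference 0.61, SE 0.71, adjusted p = 0.665 in edgeR). Cd70, the ligand of CD27, had 0 reads in all 4 Ccnd1 and all 4 MMSET libraries and at most 1.62 CPM elsewhere (edgeR adjusted p = 0.0590 for the average). Tnfsf13, encoding APRIL, and its neighbour Tnfsf12 are each overlapped by Tnfsfm13 within 13.5 kb of chromosome 11, so how reads were shared among the 3 is uncertain. Tnfsf13, Fasl and Tnfsf8 passed in no comparison in edgeR. Tnfsf14, encoding LIGHT, held 218 reads in the 16 libraries without Ikk2ca, namely 45 in Control(D) replicate 2, 57 and 21 in Ccnd1 replicates 1 and 2, 94 in MMSET replicate 1 and 1 in Control(M) replicate 2, and 7 reads in the 20 with it. Its average passed (edgeR adjusted p = 0.0125) and was lost without MMSET replicate 1, without Control(D) replicate 2 or without Control(M) replicate 2.

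Among receptors that bind TRAF adaptors, Cd40 moved most evenly. Cd40 (chr2:165055627-165072948) encodes the receptor for CD40 ligand, and Cd40lg itself had 3 reads in all 36 libraries. Its CPM was 1.99, 3.25, 2.16 and 6.66 in Control(D), 0.0562, 3.34, 3.05 and 6.73 in Ccnd1, 5.84, 29.3, 9.59 and 15.5 in Ikk2ca(D) and 7.93 to 20.1 (median 13.6) in Ccnd1-Ikk2ca. In cohort M it was 5.65, 2.0, 7.69 and 6.56 in Control(M), 5.64, 11.3, 10.4 and 5.17 in MMSET, 11.8, 18.6, 29.9 and 30.3 in Ikk2ca(M) and 14.7 to 31.7 (median 23.6) in MMSET-Ikk2ca. Only Ikk2ca(D) replicate 1 overlapped the libraries of its own control; the other 3 groups with Ikk2ca lay wholly above theirs.

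All 20 libraries with Ikk2ca exceeded the median of the 16 without it for Cd40, and 16 of the 20 exceeded every one. The average rise was 1.92 on the log2 scale (SE 0.31, 3.77-fold, edgeR adjusted p = 5.07e-05). In cohort M the rise passed on its own, at 2.04 (SE 0.40, 4.10-fold, adjusted p = 0.0176) for Ikk2ca(M) against Control(M), 2.06 (SE 0.38, 4.17-fold, adjusted p = 0.0023) for MMSET-Ikk2ca against Control(M) and 1.5 (SE 0.37, 2.83-fold, adjusted p = 0.0458) for MMSET-Ikk2ca against MMSET, all in edgeR. In cohort D the differences were 2.10 (SE 0.77, adjusted p = 0.245) for Ikk2ca(D) against Control(D) and 2.01 (SE 0.73, adjusted p = 0.114) for Ccnd1-Ikk2ca against Ccnd1. The Ikk2ca effect differed between cohorts by -0.05 (SE 0.86, edgeR adjusted p = 1.0). The call for Ikk2ca(M) was lost without its replicate 3 or 4 (adjusted p up to 0.0645), and that against MMSET without any of 14 of the 18 libraries (adjusted p up to 0.141). The comparison of MMSET-Ikk2ca with Control(M) kept its call in each of the 18 cases.

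Tnfrsf9 encodes 4-1BB, a costimulatory receptor of activated lymphocytes. It had 201 reads in the 16 libraries without Ikk2ca, 9 of which held none, and 3430 reads in the 20 with it, all of which held at least 13. Its CPM was 2.87, 4.74, 3.11 and 0.573 in Ikk2ca(D), 3.48, 3.10, 6.64 and 2.21 in Ikk2ca(M), 0.201 to 2.39 (median 1.68) in Ccnd1-Ikk2ca and 0.248 to 4.65 (median 1.39) in MMSET-Ikk2ca. The highest library without Ikk2ca was Control(M) replicate 1 at 1.01 CPM. Ikk2ca(D) and Ikk2ca(M) lay wholly above their controls, and in the groups with both transgenes the lowest libraries overlapped. The average rise was 3.59 on the log2 scale (SE 0.84, edgeR adjusted p = 0.0029) and remained called with each of the 36 libraries left out. No single comparison within a cohort passed, with edgeR adjusted p-values of 0.261 for Ikk2ca(D) and 0.341 for Ikk2ca(M) against their controls.

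Ltbr encodes the receptor for the Ltb-containing lymphotoxin. It stood at 0.757, 0.704, 0.0169 and 1.12 CPM in Control(D), 1.76, 2.16, 8.11 and 4.11 in Ccnd1, 0, 3.40, 5.81 and 6.83 in Ikk2ca(D) and 6.83 to 11.7 (median 9.26) in Ccnd1-Ikk2ca. Ccnd1 and Ccnd1-Ikk2ca lay wholly above Control(D), whereas Ikk2ca(D) replicate 1 had no read. Ccnd1-Ikk2ca rose against Control(D) by 3.83 on the log2 scale (SE 1.04, edgeR adjusted p = 0.0246), a call lost without Control(D) replicate 1 or 2 (adjusted p up to 0.0708). In cohort M the values were 2.17, 2.58, 0.940 and 2.84 in Control(M), 5.27, 11.5, 6.72 and 5.32 in MMSET, 3.56, 6.47, 8.56 and 0.821 in Ikk2ca(M) and 4.69 to 8.88 (median 6.90) in MMSET-Ikk2ca. MMSET and MMSET-Ikk2ca lay wholly above Control(M), with log2 differences of 1.74 (SE 0.54, edgeR adjusted p = 0.162) and 1.68 (SE 0.51, adjusted p = 0.0510). MMSET-Ikk2ca against MMSET gave -0.07 (SE 0.47, edgeR adjusted p = 0.989). The other backgrounds gave 2.63 (SE 1.02, adjusted p = 0.264) for Ikk2ca(D) and 1.18 (SE 0.53, adjusted p = 0.360) for Ikk2ca(M) against their controls and 1.19 (SE 0.91, adjusted p = 0.524) for Ccnd1-Ikk2ca against Ccnd1, in edgeR. The average with Ikk2ca was 1.23 (SE 0.39, 2.35-fold, edgeR adjusted p = 0.0255) and was lost without Ikk2ca(M) replicate 3 (adjusted p = 0.0505).

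Tnfrsf13c, the BAFF receptor, had the highest mean level of the members over all 36 libraries, although the group mean of Ltb exceeded it in MMSET-Ikk2ca. There Ltb lay above Tnfrsf13c in replicates 1, 2 and 3 and below it in replicates 4, 5 and 6. Group means ran from 67.2 ± 20.8 CPM (SD, n = 6) in Ccnd1-Ikk2ca to 106 ± 11.0 (n = 4) in Ccnd1. The Ccnd1 libraries held 90.2, 112, 107 and 114 CPM, and Ccnd1-Ikk2ca held 49.6 to 66.0 in 5 libraries and 108 in replicate 1. Ccnd1-Ikk2ca fell by 0.67 on the log2 scale against Ccnd1 (SE 0.18, edgeR adjusted p = 0.0315), and the call was lost without any of 8 of the 18 libraries. Against Control(D), with 82.1, 76.8, 91.5 and 73.1 CPM, the difference was -0.27 (SE 0.18, edgeR adjusted p = 0.397). The average with Ikk2ca was -0.29 (SE 0.12, edgeR adjusted p = 0.0897).

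Tnfrsf18, encoding GITR, held 7.79 to 31.5 CPM over all libraries, with group means from 10.8 ± 3.32 (SD, n = 4) in Control(D) to 19.5 ± 8.43 (n = 6) in MMSET-Ikk2ca, and no comparison passed. Its average Ikk2ca difference was 0.13 (SE 0.15, edgeR adjusted p = 0.656). Tnfrsf1b, the second TNF receptor, stood at 20.5, 17.7, 11.7 and 7.43 CPM in MMSET and at 8.18, 5.23, 4.04 and 10.8 in Control(M), which overlapped. Cd27, a receptor known from memory B cells and plasma cells, reached at most 2.03 CPM outside of Ikk2ca(M) replicate 4, which had 8.36. Tnfrsf14, Tnfrsf12a and Tnfrsf4 reached at most 4.20, 2.33 and 1.77 CPM and gave no call.

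Tnfrsf8, encoding CD30, was found only without Ikk2ca. It had 0 reads in all 20 libraries with Ikk2ca and 446 reads in the 16 without, spread over 7 libraries: 1 of Control(D), 3 of Ccnd1, 2 of Control(M) and 1 of MMSET. The other 9 libraries without Ikk2ca also had 0 reads. The highest level was 2.12 CPM, in Control(M) replicate 3. The average passed (edgeR adjusted p = 0.0023) and was lost without Control(D) replicate 1 or MMSET replicate 4, each the only library of its group with reads. In cohort D Tnfrsf8 passed the low-count filter only through libraries without Ikk2ca. The edgeR adjusted p there was 0.298 for Ikk2ca(D) against Control(D) and 0.10 for Ccnd1-Ikk2ca against Ccnd1. In cohort M Tnfrsf8 was under the filter.

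Of the death domain receptors, Fas and Tnfrsf1a had the highest levels. Fas, which triggers apoptosis when bound by Fas ligand, stood at 10.6, 16.2, 8.61 and 7.03 CPM in Control(D), 28.2, 10.5, 5.11 and 1.71 in Ccnd1, 3.17, 0.958, 5.56 and 1.26 in Ikk2ca(D) and 0.201 to 6.67 (median 1.40) in Ccnd1-Ikk2ca. Both cohort D groups with Ikk2ca lay wholly below Control(D). In cohort M the values were 8.34, 3.96, 8.59 and 4.52 in Control(M), 5.32, 3.56, 4.37 and 7.59 in MMSET, 7.07, 2.69, 2.90 and 4.85 in Ikk2ca(M) and 2.63 to 12.9 (median 7.28) in MMSET-Ikk2ca, and all 4 groups overlapped.

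The average Fas difference with Ikk2ca was -1.06 on the log2 scale (SE 0.35, edgeR adjusted p = 0.0320) and was lost without any of 8 of the 36 libraries. Within cohort D it was -1.95 (SE 0.90, adjusted p = 0.354) for Ikk2ca(D) against Control(D) and -2.28 (SE 0.79, adjusted p = 0.0952) for Ccnd1-Ikk2ca against Ccnd1. Within cohort M it was -0.54 (SE 0.50, adjusted p = 0.793) for Ikk2ca(M) against Control(M) and 0.54 (SE 0.46, adjusted p = 0.752) for MMSET-Ikk2ca against MMSET. The effect of both transgenes differed between the cohorts by 2.42 (SE 0.94), which did not pass (edgeR adjusted p = 0.303).

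Tnfrsf1a encodes the main TNF receptor. It stood at 1.70, 1.06, 3.52 and 5.42 CPM in Control(D), 5.52, 9.45, 2.98 and 7.87 in Ccnd1, 0.0198, 12.0, 9.69 and 4.07 in Ikk2ca(D) and 8.01 to 11.2 (median 9.10) in Ccnd1-Ikk2ca. In cohort M it was 3.88, 4.67, 1.15 and 6.33 in Control(M), 15.2, 17.2, 7.03 and 10.6 in MMSET, 10.3, 9.13, 10 and 6.13 in Ikk2ca(M) and 5.29 to 17.0 (median 9.86) in MMSET-Ikk2ca. Ccnd1-Ikk2ca lay wholly above Control(D) and MMSET wholly above Control(M), but edgeR adjusted p-values were 0.194 and 0.121. Tnfrsf1a lies with Ltbr and Cd27 in 130 kb of chromosome 6. Ikk2ca(D) replicate 1, which had no Ltbr read, had 1 read of Tnfrsf1a and 11 reads of Cd27.

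Tnfrsf21, encoding DR6, held 1116 reads in the 16 libraries without Ikk2ca and 84 in the 20 with it, 83 of these in Ikk2ca(M) replicate 1. It reached 9.02 CPM in MMSET replicate 1, the library with the high neutrophil marker sum, and 1.26, 0.910 and 0.495 in the other MMSET libraries. All 6 MMSET-Ikk2ca libraries had 0 reads (edgeR adjusted p = 0.0628 against MMSET). Ikk2ca(M), with 83, 0, 0 and 0 reads against 43, 0, 0 and 27 in Control(M), had an adjusted p of 1.0, and in cohort D the gene was under the filter. The average passed (edgeR adjusted p = 0.0013), also without MMSET replicate 1 (adjusted p = 0.0030), and was lost without Ccnd1 replicate 2, the only Ccnd1 library with reads. Tnfrsf10b, the receptor for TRAIL, ranged from 0.135 to 5.13 CPM, with an average difference of 0.92 (SE 0.41, edgeR adjusted p = 0.127).

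**Figure D4:**
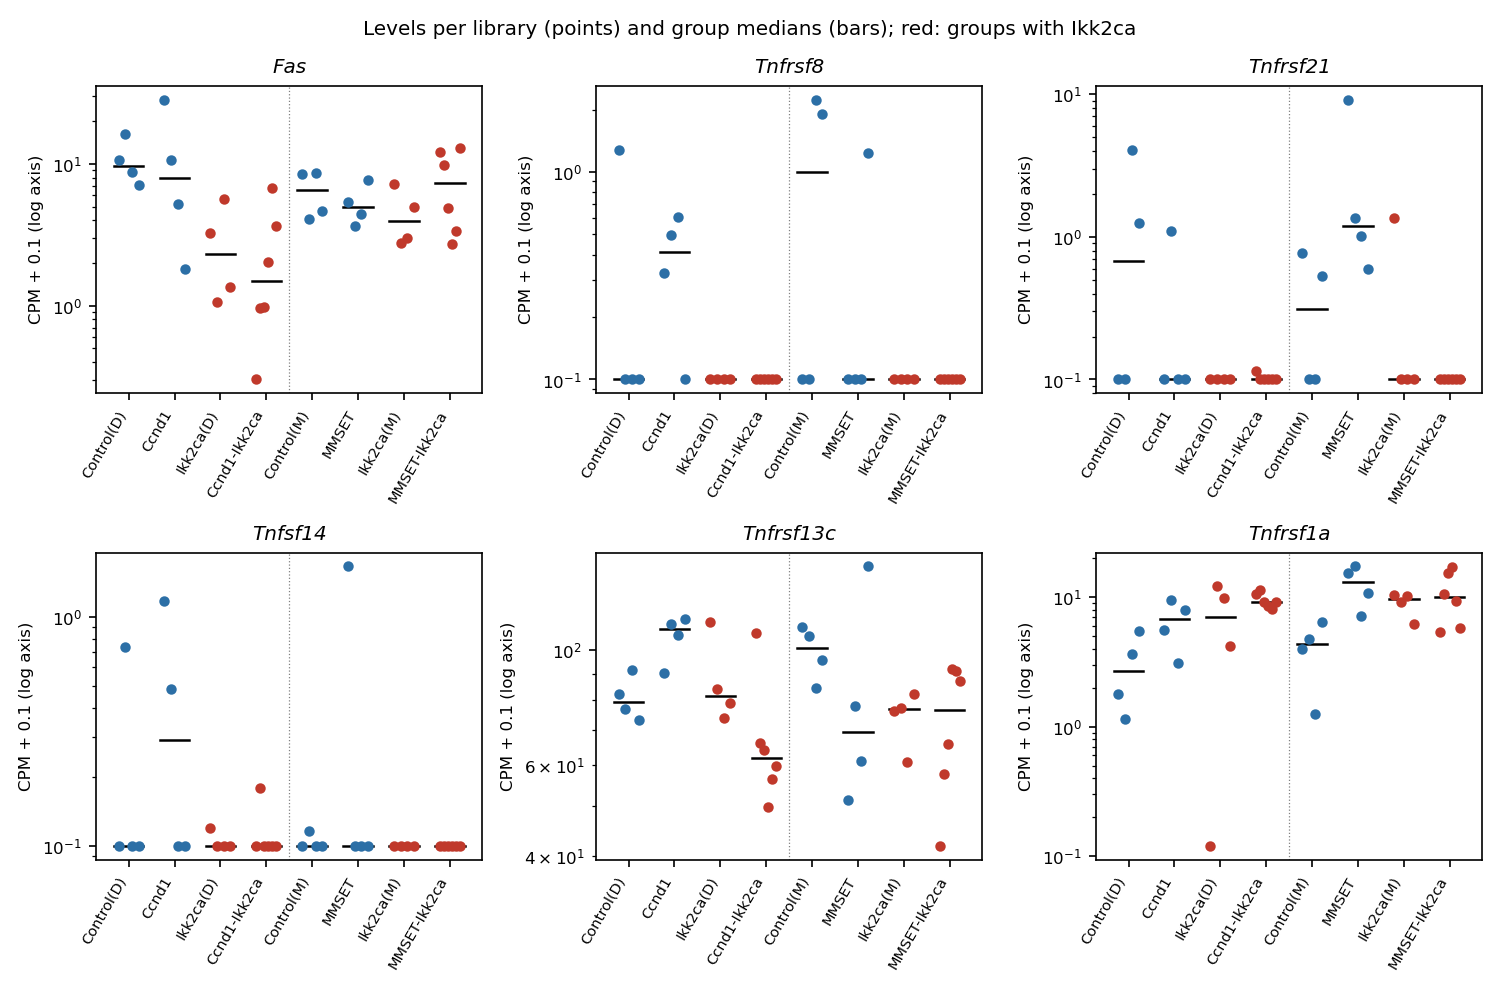
CPM plus 0.1 (log axis) of Fas, Tnfrsf8, Tnfrsf21, Tnfsf14, Tnfrsf13c and Tnfrsf1a in each library (points) with group medians (bars); red marks groups with Ikk2ca and the dotted line separates the cohorts. Libraries without reads lie on the lower edge at 0.1: all 20 with Ikk2ca and 9 of the 16 without it for Tnfrsf8, 18 and 7 for Tnfrsf21, and 18 and 11 for Tnfsf14.

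Tnfrsf22, Tnfrsf23 and Tnfrsf26, classed here as decoy or other receptors, are neighbouring paralogs within 78.2 kb of chromosome 7, so reads may be split among them. They reached at most 6.81, 8.57 and 9.14 CPM and passed in no comparison in edgeR. Of Tnfrsf26 the 6 MMSET-Ikk2ca libraries (2.44 to 7.75 CPM) all exceeded the 4 of MMSET (0.380, 1.91, 0.227 and 0.0367), with an edgeR adjusted p of 0.102; DESeq2 called this difference. Of the 41 members, 25 passed the low-count filter in cohort D, 28 in cohort M and 32 in the fit of all libraries. Tnfrsf25, Tnfsf14 and Tnfsf4 passed only in the last. The 9 that passed in none were Cd40lg, Ngfr, Tnfrsf11a, Tnfrsf11b, Tnfrsf19, Tnfsf11, Tnfsf12, Tnfsf15 and Tnfsf18. Of these, Tnfsf11 (RANK ligand) had 4 reads in all and Tnfrsf11b (its decoy osteoprotegerin) none, at depths of 54.1 to 97.6 M reads.

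Ccnd1 alone changed no member by the test: 0 of 25 passed in edgeR, against 0.00653% of all genes, with 3 members at an unadjusted p under 0.05 and 0 called by DESeq2. Ikk2ca(D) against Control(D) gave 0 of 25, against 0.437% of all genes, with 7 members at an unadjusted p under 0.05 and 2 called by DESeq2 (Tnf and Tnfrsf8). In cohort D Tnf passed the low-count filter only through libraries with Ikk2ca and Tnfrsf8 only through libraries without it. Each of these calls could therefore go in 1 direction only. Ccnd1-Ikk2ca gave 1 of 25 against Control(D) (Ltbr), where 11.1% of all genes passed, and 3 of 25 against Ccnd1 (Ltb and Tnf higher, Tnfrsf13c lower), where 6.2% did (2.81% higher and 3.39% lower). Against Ikk2ca(D) it gave 0 of 25 in edgeR (0.424% of all genes, 1 member at an unadjusted p under 0.05, 0 by DESeq2). These comparisons share Control(D), Ccnd1 or Ccnd1-Ikk2ca libraries.

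In cohort M, MMSET against Control(M) gave 0 of 28 in edgeR, against 0.649% of all genes, with 6 members at an unadjusted p under 0.05 and 3 called by DESeq2 (Ltbr, Tnfrsf1a and Tnfsf10, all higher). Ikk2ca(M) gave 1 of 28 (Cd40; 0.649% of all genes) and MMSET-Ikk2ca 2 of 28 (Cd40 and Tnfsf10; 6.91% of all genes), both against Control(M). MMSET-Ikk2ca gave 1 of 28 against MMSET (Cd40; 1.58% of all genes). Against Ikk2ca(M) it gave 0 of 28 in edgeR (0.96% of all genes, 3 members at an unadjusted p under 0.05, 1 by DESeq2). The DESeq2 call was Tnfrsf21, which had reads there only in Ikk2ca(M) replicate 1.

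Tests of differences between effects gave no member in edgeR. For the interaction of the transgenes, 0 of 25 passed in cohort D (0.0261% of all genes, 3 members at an unadjusted p under 0.05, 0 by DESeq2) and 0 of 28 in cohort M (0.0973% of all genes, 4 at an unadjusted p under 0.05, 1 by DESeq2, Tnfrsf21). Of 32 members, 0 passed for Control(M) against Control(D) (0.0409% of all genes, 3 at an unadjusted p under 0.05, 0 by DESeq2). The Ikk2ca effect of cohort M minus that of cohort D also gave 0 of 32 (0% of all genes, 2 at an unadjusted p under 0.05, 1 by DESeq2, Tnfrsf21). So did the effect of both transgenes (0.175% of all genes, 3 at an unadjusted p under 0.05, 0 by DESeq2). MMSET-Ikk2ca against Ccnd1-Ikk2ca gave 0 of 32 (2.49% of all genes, 3 at an unadjusted p under 0.05, 3 by DESeq2). Those called by DESeq2 were Tnfsf10, Tnfrsf21 and Tnfsf14. In both groups together Tnfrsf21 had 1 read and Tnfsf14 6 reads, each in a single Ccnd1-Ikk2ca library, so their calls rest on almost no reads. In edgeR Tnfsf10 came nearest, 0.99 higher in MMSET-Ikk2ca (SE 0.28, 1.98-fold, edgeR adjusted p = 0.0506).

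Genes that act below the receptors were followed in 4 lists. In the Ikk2ca average 16.1% of all genes tested passed (9.17% higher and 6.98% lower), the share beside which each list's count stands. Of 11 genes for ubiquitin editing and feedback, 5 were higher and 1 lower (Tnip2, at -0.99) in the Ikk2ca average (list median 0.13, all genes 0.02). Tnfaip3, the NF-kappaB inhibitor A20, averaged 22.5 ± 8.72 CPM (SD, n = 4) in Control(D) and 117 ± 46.2 in Ikk2ca(D), 23.5 ± 16.1 in Control(M) and 105 ± 44.1 in Ikk2ca(M), and 145 ± 42.6 and 170 ± 65.0 (n = 6) in Ccnd1-Ikk2ca and MMSET-Ikk2ca. Its average rise was 2.53 (SE 0.22, edgeR adjusted p = 2.21e-09), and that of its partner Tnip1 was 1.07 (SE 0.09, adjusted p = 5.26e-10). Of 16 TRAF adaptors and partners, 3 were higher and 0 lower (median 0.00): Tank by 0.70 (SE 0.10), the inhibitor of apoptosis Birc3 by 0.62 (SE 0.12) and Birc2 by 0.49 (SE 0.14), with edgeR adjusted p-values of 1.06e-05, 5.43e-04 and 0.0164.

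Of 10 genes of the death domain and caspase arm, 0 passed in the Ikk2ca average in edgeR (median 0.06), against 16.1% of all genes. Of the 10, 1 had an unadjusted p under 0.05 and 0 were called by DESeq2. Cflar, an inhibitor of caspase-8, was higher in MMSET-Ikk2ca than in Control(M), at 58.2 ± 12.4 (SD, n = 6) against 30.8 ± 8.80 CPM (n = 4; log2 difference 0.91, SE 0.25, edgeR adjusted p = 0.0354). Of 9 tested genes of ectodomain shedding, by which ligands and receptors are cut from the membrane, Psenen was higher by 0.36 (SE 0.07, edgeR adjusted p = 2.0e-04) and Rhbdf1 lower, at -1.31 (SE 0.43, adjusted p = 0.0324) in that average.

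Markers of other cells also differed between the groups. The counts called stand beside the 16.1% of all genes that passed in the Ikk2ca average (9.17% higher and 6.98% lower). Of 10 neutrophil markers 8 were lower in the Ikk2ca average, and their summed CPM was 42.9 to 537 in Control(D) against 1.26 to 220 in Ccnd1-Ikk2ca and 40.9 to 202 in Control(M) against 0.774 to 14.6 in MMSET-Ikk2ca. With Ikk2ca alone the neutrophil sums overlapped the controls, at 50.1 to 507 in Ikk2ca(D) and 5.87 to 446 in Ikk2ca(M), and Ccnd1 alone had 398 to 1558. Of 8 B cell markers 5 were lower and 1 higher, with sums of 325 to 435 CPM in Control(D), 173 to 254 in Ccnd1-Ikk2ca, 326 to 638 in Control(M) and 176 to 252 in MMSET-Ikk2ca, but MMSET alone also had 151 to 252. Of the 5 tested markers of NK and cytotoxic cells 1 was lower, with sums of 14.6 to 34.7, 0.253 to 2.07, 4.42 to 11.0 and 0 to 1.40 CPM in the same groups and 0 to 4.30 in MMSET. Of 10 T cell markers 2 were lower (57.2 to 75.5, 13.6 to 70.7, 36.4 to 57.8 and 19.3 to 102 CPM), and of 9 tested monocyte and macrophage markers 1 was higher (Ctss) and 1 lower (Lyz2), with sums of 410 to 527, 433 to 822, 504 to 776 and 587 to 942 CPM. Of 5 tested stromal and endothelial markers 1 was higher (Pecam1) and 1 lower (Cxcl12), with sums of 6.12 to 16.6, 11.4 to 29.2, 8.79 to 16.9 and 26.8 to 82.4 CPM in these groups. Further, 0 of 4 dendritic and 0 of 5 erythroid markers tested passed in edgeR (0 and 1 at an unadjusted p under 0.05, 0 and 1 by DESeq2). Ncr1, Klrb1c and Gzmb were at 0 in Control(D), Ikk2ca(D) and Ccnd1-Ikk2ca. The NK and cytotoxic sums with Ikk2ca alone lay below the controls, at 0.908 to 5.68 CPM in Ikk2ca(D) and 0.302 to 1.88 in Ikk2ca(M). B cell sums were 235 to 328 in Ikk2ca(D), overlapping Control(D), and 216 to 268 in Ikk2ca(M), below Control(M). Monocyte and macrophage sums were 629 to 946 in Ikk2ca(D), above Control(D), and 689 to 1090 in Ikk2ca(M), overlapping Control(M). T cell and stromal sums overlapped both controls.

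The plasma cell markers were all measured in every group, and 3 of 8 (Jchain, Mzb1 and Tnfrsf13b) were lower in the Ikk2ca average, against 6.98% of all genes. The plasma cell marker sums were 54339 to 100090 CPM in Control(D), 7680 to 19640 in Ccnd1-Ikk2ca, 31231 to 41957 in Control(M) and 4665 to 6687 in MMSET-Ikk2ca, and MMSET alone had 7185 to 24192. Ikk2ca alone had 17293 to 47649 in Ikk2ca(D) and 7029 to 16636 in Ikk2ca(M), each wholly below its control. These sums are weighted to the markers with the highest levels and do not show that all 8 fell. The list includes Tnfrsf13b, whose protein TACI was used to sort the cells. The part of these other cells in the lower Fas, Tnfrsf8, Tnfrsf21 and Tnfsf14 and in the higher Cd40, Ltb, Tnfrsf9, Tnf and Lta was not tested. Without MMSET replicate 1, 10 members were called in the average: Lta and Tnfsf14 were lost and Tnfrsf13c was gained.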

How the data were processed

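Polyadenylated RNA of 36 libraries was primed with oligo-dT and tagmented, per the labels' protocols. Reads were demultiplexed with bcl2fastq 2.20.0.422 and quantified with Salmon 1.3.0 on GRCm38, and DESeq2 1.32.0 was used, per the submitters' processing notes. The deposited tables give expected counts that the authors estimated for 140825 transcripts, and TPM, which the authors' run scaled by length within a library, per the file headers.

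Expected counts were summed to genes by GENCODE release 21 (139960 transcripts matched, and the 865 others held 0.0636% to 0.134% of reads), rounded and tested two-sided with edgeR 4.0.16 in R 4.3.3 (TMM, filterByExpr, robust quasi-likelihood; SE as the absolute log2 fold change over the root of F). Cohort fits held 18 libraries, and comparisons across cohorts held 36. Strand was not used and PCR copies stay in the counts. Log2 fold changes of genes with few reads depend on the prior count, so reads are given. On simulated data the 36-library fit made more false calls than its threshold allows, mostly among genes under 1 CPM, the range of Tnfrsf8, Tnfsf14, Tnfrsf21, Tnf and Lta.

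Members, lists, 16 comparisons and alternatives were chosen with earlier results of these data known, and the Ikk2ca average was added after the data were seen. Named were the members called in any comparison, up to 5 called partners per list and list counts for markers; others are named by level. Same-numbered libraries did not deviate together (correlations of -0.035 to 0.1), so numbers were not taken as pairs. Alternatives were DESeq2 1.42.0, its size factors in edgeR, immunoglobulin genes left out, a replicate block, testing without the low-count filter, Xist as a covariate, 1 fit of all libraries and each library left out. Python 3.11.15, pandas 2.3.3, numpy 2.4.6 and matplotlib 3.10.9 were used.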

Additional observations from a re-analysis of the deposited data

Results flagged for a closer look

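For 12 named members, the 67 of 96 combinations of member and group whose highest library reached at least 1 CPM were examined for 1 library set apart from the rest of its group by Dixon's criterion. The criterion's chance rate of about 1 in 20 groups assumes normally distributed values. CPM with many zeros are not of that kind, so the count of flags cannot be judged against it. Where only 1 library of an examined group had reads, the flag was fixed in advance. This holds for Tnfrsf8 in Control(D) and MMSET, Tnfsf14 in MMSET, Tnfrsf21 in Ikk2ca(M) and Tnfrsf9 in Control(M). In all, 11 were flagged. Of these, 3 were in MMSET replicate 1, the library with the highest neutrophil and macrophage marker sums: Tnf at 1.42 CPM, Tnfrsf21 at 9.02 and Tnfsf14 at 1.55. Lta stood out in Ccnd1-Ikk2ca replicate 3 at 1.26 CPM and in MMSET-Ikk2ca replicate 2 at 1.04. Ltb stood out in Ccnd1 replicate 3 at 7.65 CPM, Tnfrsf9 in Control(M) replicate 1 at 1.01 and Tnfrsf21 in Ikk2ca(M) replicate 1 at 1.25. Tnfrsf8 was carried by Control(D) replicate 1 at 1.17 CPM and by MMSET replicate 4 at 1.14, where the other libraries of those groups had none. Tnfrsf13c was high in Ccnd1-Ikk2ca replicate 1, at 108 CPM.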

How the results depend on the processing

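The 19 called differences of members kept their direction under every alternative run. For Tnfrsf8, Tnfrsf21, Tnfsf14 and Tnf the direction was fixed by the low-count filter, so its being kept says nothing about them. The directions of differences that did not pass were not tabulated. DESeq2 called 10 members in the Ikk2ca average, without Lta (adjusted p = 0.0959), and more than edgeR in these comparisons: 2 for Ikk2ca(D), 7 for Ccnd1-Ikk2ca against Control(D), 6 against Ccnd1, 3 for MMSET, 6 for MMSET-Ikk2ca against Control(M), 1 against Ikk2ca(M) and 4 against MMSET, 1 for the cohort M interaction, 1 for the Ikk2ca effect between cohorts and 3 for MMSET-Ikk2ca against Ccnd1-Ikk2ca (1 with DESeq2 size factors in edgeR). The 1 DESeq2 call against Ikk2ca(M), in the cohort M interaction and between cohorts was Tnfrsf21 each time. Between the groups with both transgenes the calls were Tnfsf10, Tnfrsf21 and Tnfsf14, the last of these and Tnfrsf21 at almost no reads. In cohort D the direction of the DESeq2 calls of Tnf and Tnfrsf8 was fixed by the filter. With Xist as a covariate 1 was called for MMSET, 4 for MMSET-Ikk2ca against Control(M) and 0 against MMSET. In 1 fit of 36 libraries the counts were 4 for Ccnd1-Ikk2ca against Control(D), 0 for Ikk2ca(M) and 2 for MMSET-Ikk2ca against MMSET (Ltb and Tnfrsf21 in place of Cd40, adjusted p = 0.195), while Ccnd1-Ikk2ca against Ccnd1 kept 3 but only Ltb was shared (Tnf 0.106, Tnfrsf13c 0.0776). Leaving out immunoglobulin genes gave 2 for MMSET-Ikk2ca against MMSET. Without the low-count filter Ccnd1-Ikk2ca against Ccnd1 gave 1. Against Control(D) that setting called Tnfrsf21 in place of Ltbr (edgeR adjusted p = 0.0645). The Ikk2ca average then gave 9 members, without Fas and Lta (edgeR adjusted p = 0.0597 and 0.0693). The causes were not tested.

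With the replicate block, although the numbers do not pair the libraries, 7 members were called in the Ikk2ca average (4 higher, 3 lower), 0 for Ccnd1-Ikk2ca against Ccnd1, 0 for Ikk2ca(M) and 0 for MMSET-Ikk2ca against MMSET; Ccnd1-Ikk2ca against Control(D) gave 1, Fas in place of Ltbr. With each library left out, the counts ran from 0 to 1 for MMSET-Ikk2ca against Ccnd1-Ikk2ca, 8 to 12 for the Ikk2ca average, 1 to 4 for Ccnd1-Ikk2ca against Control(D), 0 to 3 against Ccnd1, 0 to 1 for MMSET, 0 to 2 for Ikk2ca(M), 2 to 4 for MMSET-Ikk2ca against Control(M) and 0 to 2 against MMSET, and stayed at 0 in the other comparisons. The Ikk2ca averages of Cd40, Ltb, Tnfrsf9 and Tnfsf10 stayed called in all 36 of these cases and under all 6 other alternatives. Members with almost no reads, such as Cd40lg with 3 reads in all 36 libraries, cannot be compared between groups. Whether depth limits them was not tested.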
